A study of Mus musculus with 14 samples.

Results

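In failing mouse hearts that had lost Fam210a in cardiomyocytes, 44 genes that were close to silent in control hearts were switched on. Members were selected on the late counts: a gene belonged to the set when its counts summed to at most 10 over the 3 late control hearts and reached at least 1 CPM (the counts-per-million unit, a count as a share of the library total) in each of the 3 late knockout hearts. Of 53735 gene symbols, 11895 reached 1 CPM in each late knockout heart, 37073 had at most 10 counts over the late controls, and 44 made up the set, with 1 further symbol left out by name. The mirror rule, at most 10 counts over the late knockout hearts and at least 1 CPM in each late control, held for 56 symbols. Because late counts chose the set, its late values are a description and carry no test.

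The hearts came from male C57BL/6 mice. Every mouse carried the alphaMHC MCM/+ transgene, a Cre recombinase under the cardiomyocyte-specific Myh6 promoter that tamoxifen activates, and every mouse received tamoxifen. Knockout mice (cKO) were also Fam210a fl/fl, and control mice had the transgene alone. Fam210a encodes a mitochondrial protein. RNA was taken about 5 weeks after tamoxifen, when the design describes heart function as normal (4 cKO and 4 control hearts, "early"), and about 10 weeks after, when it was strongly impaired (3 and 3, "late"). Nothing in the labels states that separate libraries came from separate mice, so every p-value refers to the spread between libraries, which may be partly technical.

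Library totals were 15657298 to 19466469 counts early and 29989076 to 35750964 late. Fam210a stood at 62.0 to 69.6 CPM in late cKO hearts and 127 to 137 CPM in late controls. Early it stood at 137 to 152 CPM in cKO hearts and 163 to 178 CPM in controls, and the difference did not pass the edgeR test (adjusted p = 0.170). The labels of early cKO replicate 4 conflict: by title and description it is a knockout, by genotype field a control. Its Fam210a level was 148 CPM, within the range of the other early cKO hearts and below every early control. It was kept as a cKO heart, and early results are also given without it. None of the 44 genes is on a marker list for a cell type of the heart. The cap on late control counts kept out any marker clearly seen in control hearts, so for such markers the selection fixed this outcome. The defining cardiomyocyte markers were high in all hearts, with a summed level of 51413 to 67465 CPM over 6 genes. Early, this sum was 51413 to 53016 CPM in cKO hearts and 56891 to 61329 CPM in controls, with no overlap. Late, the summed markers of several other cell types were lower in every cKO heart than in every control, among them endothelial 313 to 385 against 776 to 1023 CPM, smooth muscle and pericyte 333 to 477 against 901 to 1028 CPM, macrophage 60.2 to 70.4 against 108 to 118 CPM, and B cell 0.526 to 0.853 against 10.7 to 12.8 CPM. The part of these shifts in the levels of the 44 genes was not tested. In whole hearts, fewer cells of a type and less RNA per cell cannot be told apart.

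A heart normally keeps many tissue-specific genes closed, including those of germ cells, sensory epithelium and skin. Some stress pathways can open single genes from a near-silent state. In the integrated stress response, the transcription factor ATF4 binds C/EBP-ATF response elements and raises genes for amino acid supply, among them the cystine transporter gene Slc7a11. AP-1, a dimer of Jun and Fos family proteins, binds a different short motif and is induced by growth and stretch signals.

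Coordinates were known for 34 of the 44 genes, 33 annotated as protein-coding and 1 as antisense RNA. The other 10 have clone-based symbols of the RP23 and RP24 type and are given by symbol alone. Promoter windows (250 bases before to 50 bases after the annotated start, from RefSeq on GRCm38.p6) were found for 27 of the genes, and 3 motifs were searched in them on both strands. The C/EBP-ATF response element core TGATGNAA occurred in a window of 2 of the 27 genes (7.41%), against 4.51% of all 27024 genes with a window. The AP-1 motif TGANTCA occurred in 5 of the 27 genes (18.5%), against 8.97% of all genes. The cAMP response element TGACGTCA occurred in 0 of the 27 genes, against 2.03% of all genes. Some genes have several annotated starts, so the 27 genes have 33 windows, and by window the shares were 6.06%, 15.2% and 0, against 3.97%, 7.81% and 1.79% of all 32850 windows. The matches describe letters in a window and are not shown to be bound.

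Sequence is shown for Slc7a11 and Sprr1a, the members whose windows held a motif more than once, and for the short stretch that Fam227b shares with an active neighbour. Each is on the gene's own strand, 5′ to 3′. The Slc7a11 stretch is chr3:50443615-50443863 (minus strand, 249 bases upstream of the GENCODE gene), and its capitals mark the 2 matches to TGATGNAA, which begin 66 and 47 bases before the RefSeq start and lie on opposite strands. The Sprr1a stretch is chr3:92485896-92486131 (minus strand, 236 bases), and its capitals mark the 2 matches to TGANTCA, which begin 146 and 116 bases before the RefSeq start. The stretch between Fam227b and Dtwd1 is chr2:126152005-126152140 (minus strand, 136 bases), and none of the 3 motifs was found in the Fam227b window.
Slc7a11: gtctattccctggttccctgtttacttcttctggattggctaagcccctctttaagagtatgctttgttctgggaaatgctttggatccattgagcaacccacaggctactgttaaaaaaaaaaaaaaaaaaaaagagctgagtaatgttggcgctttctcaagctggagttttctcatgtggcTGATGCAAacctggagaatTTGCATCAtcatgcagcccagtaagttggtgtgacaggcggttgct
Sprr1a: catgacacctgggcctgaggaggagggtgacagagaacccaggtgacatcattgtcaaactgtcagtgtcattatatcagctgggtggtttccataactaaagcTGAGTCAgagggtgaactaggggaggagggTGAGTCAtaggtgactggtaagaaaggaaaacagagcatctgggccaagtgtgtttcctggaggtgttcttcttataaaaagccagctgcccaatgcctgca
Fam227b: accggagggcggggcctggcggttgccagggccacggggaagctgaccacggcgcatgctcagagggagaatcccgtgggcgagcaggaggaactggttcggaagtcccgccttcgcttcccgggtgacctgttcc
The remaining AP-1 matches were in the windows of Dhrs9 and Slc6a12, 18 and 58 bases before the RefSeq start, and of Arfgef3 and Taf7l, after the start. Slc6a12 has 5 windows, of which 1 held the match. The other C/EBP-ATF match was in Cyb5r2, after the start.

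Late levels of the set ranged widely. Mean late cKO levels ran from 1.27 CPM (Gsdma) to 73.8 CPM (Vmn2r3), with a median of 2.62 CPM. Of the 44 genes, 14 averaged 1 to under 2 CPM, 21 averaged 2 to under 10 CPM, and 9 averaged 10 CPM or more. Over the 3 late controls together, 10 genes had 0 counts, 11 had 1 to 3 counts, and 23 had 4 to 10. A count of 0 over the late controls allows a level of up to 0.0321 CPM (3 counts). Folds for genes without a control count were taken against that floor, and the others are ratios of pooled CPM with a 95% exact interval. Intervals and floors cover the counting error of pooled reads only and leave out the spread between hearts. Reads are also not separate molecules, and the cap on control counts limited the denominators.

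**Figure D1:**
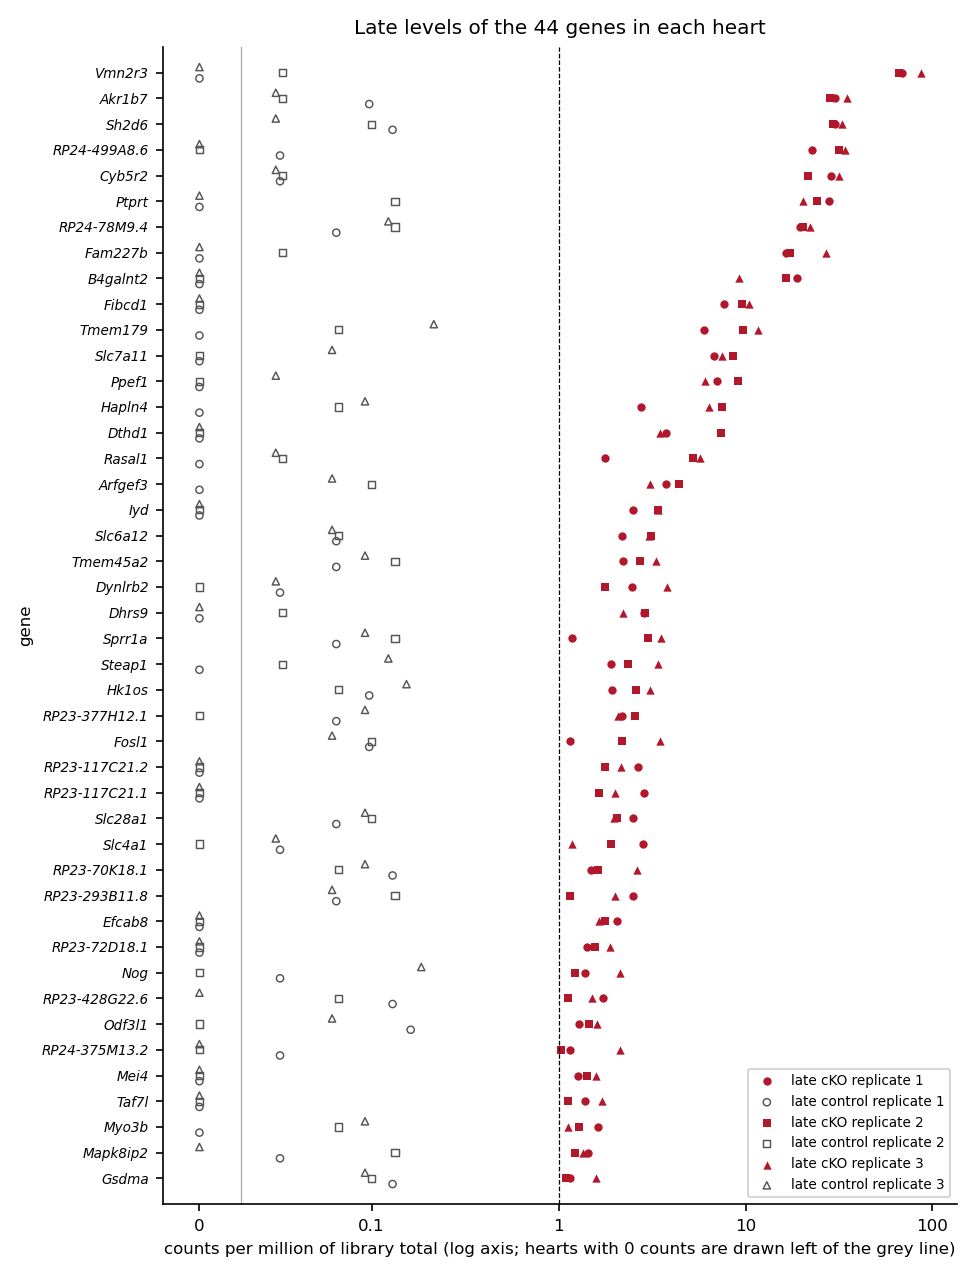
Levels of the 44 genes in each late heart, in CPM on a log axis, ordered by mean late cKO level; filled symbols are cKO hearts, open symbols are control hearts, and shapes are replicates. Control hearts without a count lie left of the grey line, and the cKO hearts spread from just over the dashed 1 CPM line to 86.7 CPM for Vmn2r3.

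The roles below are textbook functions, grouped after the names were seen. The set held 5 receptors and other cell surface proteins, 6 enzymes of small molecules and glycans, 4 transporters, 6 signalling and transcription proteins and 2 secreted or matrix proteins. It further held 5 sperm, meiosis, cilia and motor proteins, 2 skin proteins, 3 genes named only by family or domain, 1 antisense RNA and the 10 clone-based symbols.

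Among receptors, Vmn2r3 was the most abundant of all 44 by CPM. It belongs to the V2R pheromone receptors of the vomeronasal organ. Its late controls had 0, 1 and 0 counts, and its late cKO hearts stood at 68.4, 66.3 and 86.7 CPM (73.8 ± 11.2, SD, n = 3). The ratio was 6841 (95% interval 1227 to 270222). Vmn2r3 (chr3:64257215-64289709, minus strand) has 17.4 kb of annotated exons, and per kilobase it stood at 4.24 CPM, below 6 shorter members. The table gives 1 count per symbol, so the part of this long gene that carried the reads is not known. The table lists 122 Vmn2r symbols, which are near-identical copies in places, so counting could have split or lost reads among them. Of the 122, 4 had a late count, Vmn2r3 was the only one to reach 1 CPM in each late cKO heart, and the highest level of any other was 0.412 CPM (14 counts). None of 231 Vmn1r symbols, the other vomeronasal receptor family, reached 1 CPM in each late cKO heart.

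Ptprt, a receptor-type tyrosine phosphatase best known from the nervous system, had 0, 4 and 0 control counts and 27.9, 24.2 and 20.2 CPM in late cKO hearts. Its ratio was 566 (221 to 2078), and all 4 of its control counts were in 1 heart. Fibcd1, a membrane receptor for acetylated sugars such as chitin, had no control count and 7.64, 9.62 and 10.5 CPM in cKO hearts, at least 287-fold higher. Tmem179, a transmembrane protein, had 0, 2 and 7 control counts and 5.97, 9.68 and 11.7 CPM. Tmem45a2 averaged 2.75 ± 0.558 CPM (SD, n = 3) over cKO hearts with 9 control counts. Its paralogue Tmem45a went the other way, at 1.73 ± 0.143 CPM in late cKO and 4.18 ± 0.632 CPM in late controls (SD, n = 3 each, edgeR adjusted p = 0.000518), and reads may have been shared between the copies.

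Of the enzymes, Akr1b7, an aldose reductase family member abundant in the adrenal gland and vas deferens, had 3, 1 and 1 control counts. Its late cKO hearts stood at 29.9, 28.3 and 34.9 CPM, a ratio of 576 (247 to 1776). At 24.2 CPM per kilobase of exon it was the highest of the 34 genes with a known length. Cyb5r2, an NADH-cytochrome b5 reductase, had 1 count in each control and 28.6, 21.7 and 31.6 CPM in cKO hearts, a ratio of 842 (288 to 4086) and 9.85 CPM per kilobase. B4galnt2, which adds the N-acetylgalactosamine that completes the Sd(a) glycan, had no control count. Its cKO hearts stood at 18.9, 16.4 and 9.27 CPM, at least 471-fold higher and with the third heart at the low end. Iyd, the deiodinase that recovers iodide in the thyroid, had no control count and 2.50, 3.41 and 3.42 CPM, at least 96.7-fold higher. Dhrs9, a dehydrogenase of retinol and steroids, averaged 2.65 ± 0.392 CPM with 1 control count. Steap1, of a family of metalloreductases, stood at 1.91, 2.35 and 3.42 CPM in cKO hearts, with 0, 1 and 4 control counts.

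Akr1b7, Cyb5r2 and Steap1 had active relatives, and the relatives did not share 1 direction. The rest of the Akr1b family was already on in control hearts. Akr1b8 rose from 4.71 to 15.9 CPM (edgeR log2 fold change 1.83, SE 0.14, adjusted p = 7.77e-06), while Akr1b3 fell from 147 to 57.6 CPM and Akr1b10 from 51.9 to 13.6 CPM (adjusted p = 6.15e-05 and 4.70e-06). The Cyb5r relatives all rose, Cyb5r1 from 34.1 to 581 CPM, Cyb5r3 from 104 to 551 CPM and Cyb5r4 from 29.4 to 43.9 CPM (largest adjusted p = 0.000924). Beside Steap1, Steap2 rose from 0.937 to 4.82 CPM, and Steap3 and Steap4 fell from 42.6 to 9.34 and from 44.2 to 23.8 CPM (largest adjusted p = 0.000562). Over all genes tested late with edgeR, 65.0% changed and 31.8% rose.

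Slc7a11, the cystine-glutamate antiporter, led the transporters. It had 0, 0 and 2 control counts and 6.76, 8.53 and 7.53 CPM in late cKO hearts (7.61 ± 0.888, SD, n = 3), a ratio of 356 (98.3 to 2946). Slc6a12, the betaine and GABA transporter, had 2 counts in each control and averaged 2.79 ± 0.532 CPM. Slc28a1, a sodium-coupled nucleoside transporter, averaged 2.17 ± 0.286 CPM with 8 control counts. Its relative Slc28a2 fell from 40.5 to 6.69 CPM (edgeR adjusted p = 3.31e-06). Slc4a1, the anion exchanger band 3 of red blood cells, had 1, 0 and 1 control counts and 2.82, 1.90 and 1.18 CPM in cKO hearts. The summed level of the erythroid markers Hba-a1, Hbb-bs, Hbb-bt and Alas2 was 319, 167 and 223 CPM in late cKO hearts and 38.1 to 61.3 CPM in late controls. All 4 of these markers rose late by the edgeR test. Slc4a1 and the erythroid sum were both highest in late cKO replicate 1, but replicates 2 and 3 stood in opposite order. In early hearts the highest Slc4a1 count, 6, was in control replicate 4, which also had the highest erythroid sum, 123 CPM against 11.8 to 51.9 CPM in the other early hearts. The order was not kept throughout, since early cKO replicate 1, with an erythroid sum of 51.6 CPM, had 1 Slc4a1 count. The part of red blood cells in the Slc4a1 level was not tested.

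Of the signalling and transcription genes, Sh2d6, an adaptor with an SH2 domain, was by far the highest. It had 4, 3 and 1 control counts and 30.2, 29.2 and 32.6 CPM in late cKO hearts, a ratio of 357 (181 to 828) and 18.2 CPM per kilobase. Ppef1, a protein phosphatase with calcium-binding EF hands, had 0, 0 and 1 control counts and 7.0, 9.09 and 6.08 CPM. Rasal1, which switches off Ras, stood at 1.76, 5.23 and 5.69 CPM, with the first heart well below the others. Arfgef3, related to exchange factors of Arf GTPases, averaged 3.75 ± 0.651 CPM, and Mapk8ip2, a scaffold of JNK signalling, 1.34 ± 0.105 CPM. Fosl1 (Fra-1), the 1 member that is itself a Fos family subunit of AP-1, stood at 1.15, 2.18 and 3.48 CPM, with 3, 3 and 2 control counts. Of its relatives, Fosl2 rose from 26.7 to 66.4 CPM (edgeR adjusted p = 0.00115), Fosb fell from 1.40 to 0.396 CPM (adjusted p = 0.00585), and Fos did not pass the test (6.33 to 4.65 CPM, adjusted p = 0.437).

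The secreted and matrix genes were Hapln4, a link protein of the brain's hyaluronan matrix (2.76, 7.52 and 6.34 CPM), and Nog, the BMP inhibitor noggin (1.38, 1.23 and 2.14 CPM). Nog had 1, 0 and 6 control counts, and Hapln4 0, 2 and 3.

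The 5 sperm, meiosis, cilia and motor genes were all low. Dynlrb2, a dynein light chain of cilia and flagella, averaged 2.67 ± 1.02 CPM with 2 control counts, while Dynlrb1, its broadly expressed counterpart, stood at 87.1 CPM in late controls and 117 CPM in late cKO hearts. Odf3l1, related to a sperm tail protein, averaged 1.45 ± 0.159 CPM. Mei4, needed for the DNA breaks that start meiotic recombination, and Taf7l, a testis form of a general transcription factor subunit, had no control count and averaged 1.42 ± 0.157 and 1.40 ± 0.296 CPM. These were at least 44.1-fold and 43.2-fold higher. Taf7, the general form, went from 10.4 to 5.76 CPM (edgeR adjusted p = 0.00119). Myo3b, a myosin of sensory cells, averaged 1.34 ± 0.254 CPM.

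The skin genes were Sprr1a, a cornified envelope protein also induced in injured nerve and stressed myocytes, and Gsdma, a pore-forming gasdermin. Sprr1a had 2, 4 and 3 control counts and 1.18, 3.02 and 3.55 CPM in late cKO hearts. The other 14 Sprr symbols reached at most 0.123 CPM in a late heart. Gsdma, with 4, 3 and 3 control counts and 1.15, 1.09 and 1.58 CPM, had the smallest ratio of the set, 11.7 (6.18 to 25.1). Its paralogues Gsdma2 and Gsdma3, whose similarity to it was not measured, averaged 0.00980 and 0 CPM in late cKO hearts. Gsdmd fell from 14.1 to 2.51 CPM (edgeR adjusted p = 5.72e-05).

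Of the genes named only by family or domain, Fam227b had 0, 1 and 0 control counts and 16.5, 17.3 and 26.9 CPM, a ratio of 1860 (333 to 73502). Dthd1, named for its death domain, had no control count and 3.76, 7.41 and 3.48 CPM, at least 155-fold higher. Efcab8, named for its EF hands, had no control count and averaged 1.82 ± 0.213 CPM. The antisense RNA Hk1os averaged 2.54 ± 0.577 CPM with 10 control counts. Among clone-based symbols, RP24-499A8.6 stood at 22.7, 31.6 and 33.9 CPM and RP24-78M9.4 at 19.5, 20.3 and 22.2 CPM, with 1 and 10 control counts. The other 8 averaged 1.44 to 2.27 CPM.

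Genes lay close to both thresholds on either side. Gsdma, Hk1os and RP24-78M9.4 entered with exactly 10 control counts, and RP23-199A2.7, Catsperd and Atp2b3 stayed out with 11. At the other threshold, RP24-375M13.2, Gsdma and Myo3b entered with lowest cKO hearts of 1.03, 1.09 and 1.12 CPM. RP24-273G1.3, Cemip and RP23-213N8.1 stayed out at 0.970, 0.888 and 0.882 CPM.

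**Figure D2:**
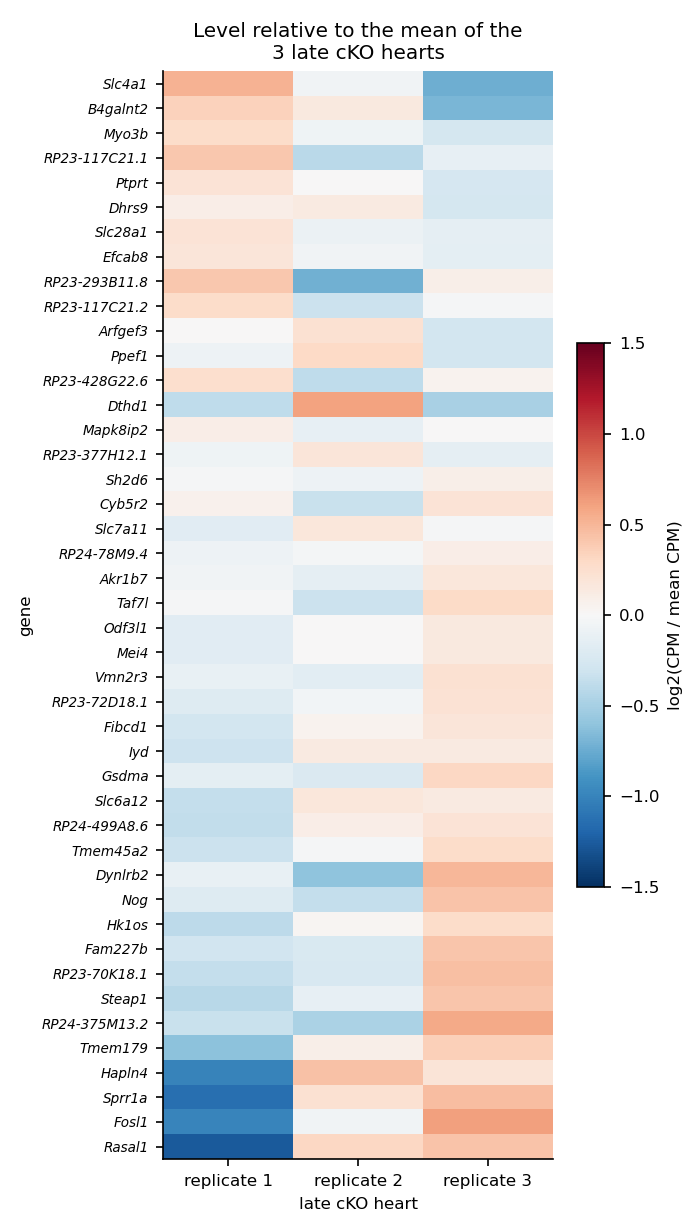
Late cKO level of each gene in each heart, as log2 of its CPM over the mean of the 3 late cKO hearts; rows are the 44 genes, columns the hearts, red is above and blue below the gene's mean. Slc4a1 and B4galnt2 at the top were highest in replicate 1, and Rasal1, Fosl1, Sprr1a and Hapln4 at the bottom were lowest there.

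The 44 genes did not follow 1 order across the 3 late cKO hearts. Summed over the set, the level was 353, 368 and 414 CPM in cKO replicates 1, 2 and 3, against 1.65, 2.0 and 2.12 CPM in controls. The highest heart was replicate 3 for 25 genes, replicate 1 for 11 and replicate 2 for 8. The ratio of the highest to the lowest cKO heart had a median of 1.49, against 1.33 over the 11895 symbols on in every late cKO heart. Those symbols include abundant genes, and counting error widens the ratio at low counts, so the 2 medians are not matched for level. The ratio exceeded 2 for 10 genes of the set and was largest for Rasal1 (3.22), Fosl1 (3.04), Sprr1a (3.02) and Hapln4 (2.72), each lowest in replicate 1. Slc4a1 and B4galnt2 varied by 2.38 and 2.04 times with their highest level in replicate 1. Late cKO replicate 1 also had the highest summed atrial markers of the cKO hearts, 347 CPM against 28.6 and 45.8 CPM, and the part of tissue sampling in this spread was not tested.

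The genes were spread over the genome. The 34 with coordinates lay on 14 chromosomes, with 6 on chromosome 2 and 4 on chromosome 11, and the closest pair, Dhrs9 and Myo3b, lay 0.635 Mb apart. The nearest annotated genes on each side within 50 kb, and overlapping genes, came to 76, of which 41 were in the table and 0 belonged to the set. Among the 41, 20 were at 1 CPM or more in each late control, and 19 were below 1 CPM in every late heart. Of 23 neighbours tested late with edgeR, 11 rose and 6 fell. Of all 14941 genes tested late, 4756 (31.8%) rose and 4957 fell. Early, 0 of 23 tested neighbours were called by edgeR, where 0.613% of all tested genes were called. DESeq2 called 0 neighbours and 172 of 25197 symbols. At an unadjusted p under 0.05 by edgeR there were 3 of the 23, and the matching share over all tested genes was not taken.

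Some of the genes lay beside or across active genes. Fam227b (chr2:125983483-126152004, minus strand) starts 136 bases from Dtwd1, which runs the opposite way (sequence above), and its other end shares 283 exon bases with Galk2 on the opposite strand. Late, Dtwd1 rose from 3.82 to 9.04 CPM and Galk2 from 9.86 to 19.8 CPM (edgeR adjusted p = 0.000219 and 0.000266). By the GENCODE genes, Odf3l1 starts 353 bases from Cspg4 on the opposite strand, which rose from 45.0 to 139 CPM (adjusted p = 1.26e-05), while both RefSeq starts of Odf3l1 lie farther from it. Efcab8 lies 6620 bases downstream of Mapre1 on the same strand, which rose from 62.9 to 245 CPM (adjusted p = 9.16e-07). Hk1os shares 157 exon bases with Hk1 on the other strand, which rose from 204 to 1024 CPM (adjusted p = 7.16e-07). The library kit did not mark strand, so reads in shared exon bases cannot be assigned to 1 gene.

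Other genes of the set lay beside genes that fell, were near silent or did not pass the test, or had neighbours that went both ways. Cyb5r2 shares 129 exon bases with Ppfibp2 (26.4 CPM in late controls, 17.6 CPM in late cKO hearts, edgeR adjusted p = 0.0509). Fosl1 shares 1163 exon bases with Ccdc85b, which fell from 14.0 to 4.85 CPM (adjusted p = 0.00135), and lies 4668 bases from Fibp on its own strand, which rose from 28.9 to 61.9 CPM (adjusted p = 0.000519). Akr1b7 lies 15383 bases from Akr1b10, which fell. Beside Sprr1a, Sprr4 had no late count, and beside Slc6a12, Slc6a13 stayed at 0.0588 to 0.196 CPM in late hearts. Around Vmn2r3 the nearest annotated genes lay 43537 and 28697 bases away, and the one in the table, Gm23897, had no late count.

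**Figure D3:**
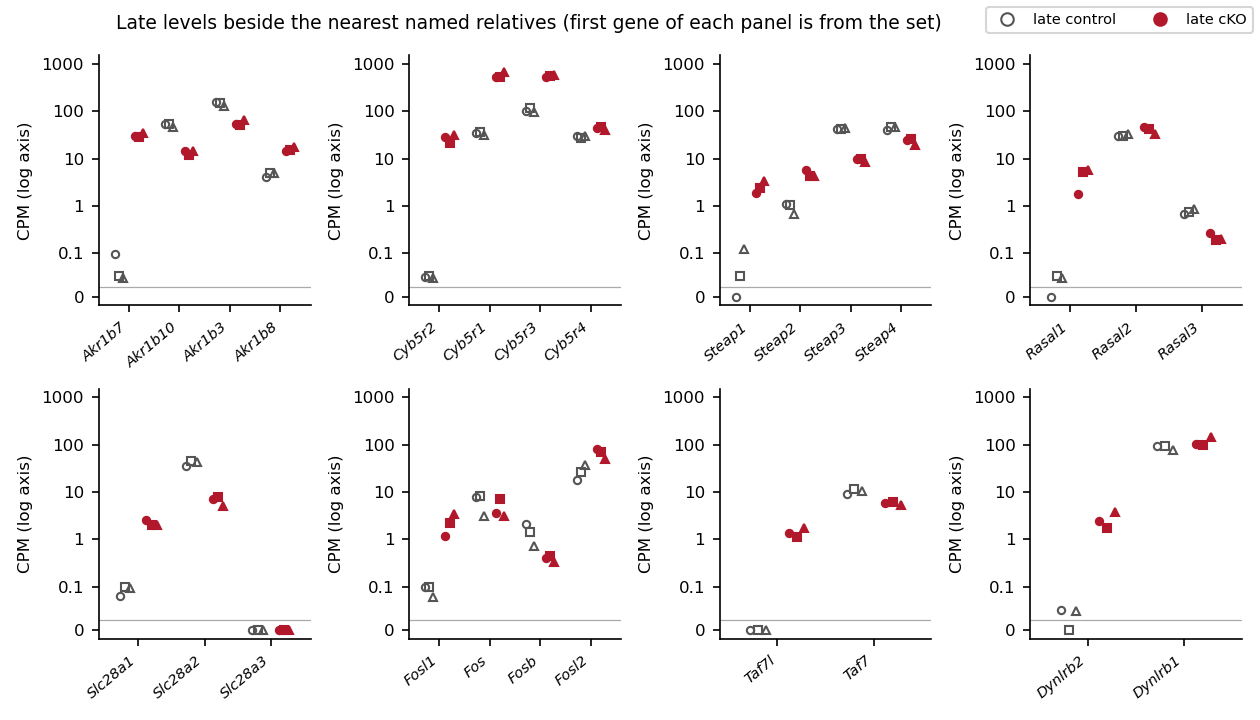
Late levels of 8 genes of the set beside their nearest named relatives, in CPM on a log axis, with 1 point per heart; open symbols are controls, filled symbols cKO hearts, shapes replicates, and hearts without a count lie below the grey line. In each panel the first gene rises from near 0, while relatives such as Akr1b10, Steap3 and Slc28a2 are lower in cKO hearts and Cyb5r1 and Fosl2 are higher.

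The early hearts were not used to choose the set, and in them the genes were nearly silent. Of the 44, 0 reached 1 CPM in every early cKO heart, and 2, Vmn2r3 and Slc7a11, reached it in any. Without cKO replicate 4, Vmn2r3 reached it in every remaining heart. At this depth 1 count is worth 0.0514 to 0.0639 CPM. Of the 44 genes, 42 had at most 10 counts over the 4 early controls, 12 had none there, and 2 had none in any early heart (RP23-117C21.1 and RP23-117C21.2). Levels were not compared between early and late hearts, since each time is its own table.

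Even so, counts leaned to the cKO hearts. Summed over the set, early cKO hearts stood at 7.45, 8.89, 10.4 and 3.73 CPM and early controls at 2.53, 2.68, 1.89 and 2.33 CPM. Without Vmn2r3 the cKO sums were 5.19, 6.32, 6.83 and 3.26 CPM and the control sums 1.89 to 2.68 CPM. The groups did not overlap in either sum, and the lowest cKO heart was replicate 4. The early mean was higher in cKO for 31 genes, lower for 11 and equal for 2. Of all symbols with an early count, 49.7% were higher in cKO.

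In 8 of the 44 genes every early cKO heart was above every early control, and in 0 every one was below. Over all 25197 symbols compared, 1.83% had every cKO heart above every control. The 8 were Vmn2r3, Slc7a11, Fibcd1, Sh2d6, Fam227b, Akr1b7, Ptprt and RP24-78M9.4.

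**Figure D4:**
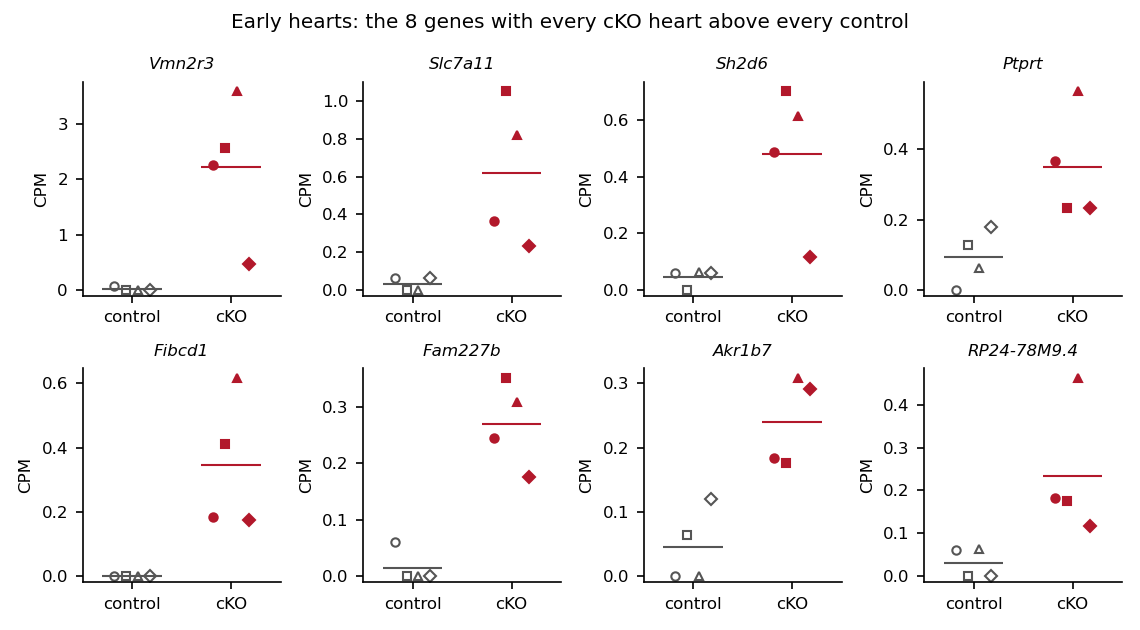
Early levels in CPM, on a linear axis of its own for each gene, of the 8 genes in which every early cKO heart was above every early control; circles, squares, triangles and diamonds are replicates 1 to 4, and lines are group means (n = 4). The diamond, cKO replicate 4, is the lowest cKO heart for all 8 genes except Akr1b7, and Vmn2r3 reaches 3.60 CPM in replicate 3.

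Early counts are given per heart, from cKO replicates 1 to 4 and then control replicates 1 to 4. Vmn2r3 had 37, 44, 70 and 8 counts in cKO hearts and 1, 0, 0 and 0 in controls. Slc7a11 had 6, 18, 16 and 4 against 1, 0, 0 and 1. Fibcd1 had 3, 7, 12 and 3 against 0 in all, the only gene without a control count that was seen in every early cKO heart. Sh2d6 had 8, 12, 12 and 2 against 1, 0, 1 and 1, and Fam227b 4, 6, 6 and 3 against 1, 0, 0 and 0. Akr1b7 had 3, 3, 6 and 5 against 0, 1, 0 and 2, Ptprt 6, 4, 11 and 4 against 0, 2, 1 and 3, and RP24-78M9.4 3, 3, 9 and 2 against 1, 0, 1 and 0. In these last 3 genes and in Sh2d6 the lowest cKO heart and the highest control were 1 count apart.

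None of the 44 genes had enough early reads to pass the low-count filter of edgeR, so the planned test covered none of them and says nothing about them. In that test 83 of 13529 genes were called, of which 70 rose (0.517% of those tested). With the filter lifted, 42 of the 44 had a count and were tested, and 5 rose at an adjusted p under 0.05, where 1.03% of all 25197 symbols rose. They were Vmn2r3 (log2 fold change 6.62, SE 0.63, adjusted p = 3.96e-12), Slc7a11 (4.04, SE 0.73, adjusted p = 0.000132), Fibcd1 (adjusted p = 0.00106), Sh2d6 (3.19, SE 0.71, adjusted p = 0.00385) and Fam227b (3.61, SE 0.95, adjusted p = 0.0256). Fibcd1 was at least 7.71-fold higher by the floor over the early controls. At an unadjusted p under 0.05, 13 of the 42 were higher in cKO hearts and 0 lower, where 4.50% of all 25197 symbols were higher.

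The call of Fam227b was lost under several alternatives and that of Sh2d6 under 1. DESeq2 kept Vmn2r3 (adjusted p = 6.32e-07), Fibcd1 (0.0185) and Slc7a11 (0.0310) and did not call Sh2d6 (0.0974) or Fam227b (0.162). Without early cKO replicate 4 all 5 were called in edgeR, and with that heart counted as a control 4 were, Fam227b missing at an adjusted p of 0.0750.

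The abundant late genes B4galnt2 and RP24-499A8.6 were among those close to 0 early. B4galnt2 had 0, 1, 2 and 0 counts and RP24-499A8.6 0, 2, 2 and 0 in early cKO hearts, and both had none in early controls. Cyb5r2 had 6, 0, 7 and 3 counts against 1, 0, 0 and 1, and did not pass the test without the filter (edgeR adjusted p = 0.217). Nog had 7, 7, 6 and 2 counts against 4, 0, 1 and 2 (adjusted p = 0.488), and Sprr1a overlapped between groups with 0, 7, 7 and 1 against 4, 2, 0 and 3. Slc4a1 was at 1, 3, 0 and 1 against 0, 4, 4 and 6. Of the relatives and neighbours named above, Cyb5r1 (log2 fold change 0.91, SE 0.13, adjusted p = 0.00646) and Fosl2 (1.30, SE 0.21, adjusted p = 0.0121) rose early.

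Few of the 44 genes fell on lists of known programmes. A list of 51 ATF4 targets and integrated stress response genes holds Slc7a11 and Steap1. Of its other 49 genes, 43 rose and 1 fell late by edgeR, where 31.8% of all tested genes rose, with a median log2 fold change of 2.91 against -0.02 over all genes. Early, 46 were tested, neither Slc7a11 nor Steap1 among them, and 22 rose and 0 fell, where 0.517% of all tested genes rose, with a median of 0.62 against 0.00033 over all genes. A list of 35 germline and testis genes holds Taf7l. Late, 6 others were tested, of which 3 rose and 0 fell. Sprr1a is on a list of 36 keratinocyte and epithelial structure genes, of which 6 others were tested late, 5 rising and 1 falling, and on one of 35 neuronal genes, of which 10 others were tested, 4 rising and 3 falling. A gene near silent in late controls could pass the low-count filter only when it was high enough in cKO hearts. For such genes only a rise could be seen, so these counts do not describe the 3 lists as a whole. Summed over the keratinocyte list, late cKO hearts (39.5 to 56.0 CPM) overlapped with controls (37.5 to 46.1 CPM). The germline and neuronal sums were higher in every late cKO heart than in every control. The neuronal sum was 476 to 709 CPM in late cKO hearts and 52.2 to 55.3 CPM in late controls. Yet the 10 other neuronal genes tested late had a median log2 fold change of -0.13, so this sum does not describe the list as a whole. The summed markers of neurons, a separate list, went the other way, at 2.13 to 3.62 CPM in late cKO hearts and 11.9 to 13.9 CPM in late controls. No gene of the set is on the lists of secreted hormones and growth factors, cytokines, muscle isoforms, placental genes or developmental transcription factors.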

How the data were processed

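The authors deposited raw counts, whole numbers for each gene symbol, in 1 table per time point. Per the labels, mRNA was selected with oligo-dT and libraries were made with the TruSeq kit V2, which does not mark strand, and read as single ends. Trimmomatic 0.36, STAR 2.6.0c and the build GRCm38 are named in the submitters' processing notes. How reads were assigned to genes (tool, annotation, strand setting) is not given in the sources used here.

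Members, gene lists and the tests were chosen with earlier results of these data known. CPM used column totals. The quasi-likelihood test of edgeR 4.0.16 (R 4.3.3) was fitted per time point over all genes, with TMM normalization and the filterByExpr defaults (a minimum count of 10 and a total of 15). Calls were made at a Benjamini-Hochberg adjusted p under 0.05. The procedure was tested on simulated data. Changes were simulated only in genes with more reads than most members had early, so the simulation does not cover the early calls of members. DESeq2 1.42.0, no filter, RLE factors, a replicate block and left-out hearts were alternatives. Depth sets the precision: early counts of most members were under 10.

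Named were the 25 members highest in late cKO hearts, members called early, up to 4 of each class, genes at the thresholds, Fam210a and neighbours. Relatives and further members were named after their values were seen. Of the 44 symbols, 34 matched GENCODE M21, which gave coordinates and exon lengths. A further erythroid marker of the list is not reported here.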

Additional observations from a re-analysis of the deposited data

Results flagged for a closer look

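A group of 4 hearts was marked where its highest or lowest heart stood far from the rest, measured as the gap to the nearest heart over the whole range, against Dixon's 95% critical value. Of 24 groups examined, 5 were marked. The critical value marks about 1 in 20 groups of normally distributed values. That rate does not hold for groups of very few counts. A group whose only count lies in 1 heart has a ratio of 1 and is always marked. The number of marks therefore cannot be compared with that rate.

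In 3 of the 5, a lone count made the gap. Early control replicate 1 held the only Vmn2r3 count of the 4 early controls (0 to 0.0603 CPM, ratio 1) and likewise the only Fam227b count (0 to 0.0603 CPM, ratio 1). For Sh2d6, early control replicate 2 had no count where the others had 1 each (0 to 0.0630 CPM, ratio 0.948).

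The other marks concern atrial cardiomyocyte markers (Myl7, Sln, Bmp10, Myl4 and Dkk3). Their summed level was 690 CPM in early cKO replicate 2 and 7.27 to 34.2 CPM in the other early cKO hearts (ratio 0.961). In early controls it was 76.0 CPM in replicate 1 and 7.38 to 10.7 CPM in the others (ratio 0.952). Early cKO replicate 2 was not the highest heart for Vmn2r3 or Fibcd1 and was the highest for Slc7a11, Sh2d6 and Fam227b. Without that heart, Vmn2r3, Slc7a11, Fibcd1 and Sh2d6 were still called by edgeR with the low-count filter lifted, and Fam227b was not (adjusted p = 0.0754).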

How the results depend on the processing

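The size of the set follows its thresholds: it was 29 genes with at most 5 control counts, 71 with at most 20, 106 with at least 0.5 CPM, 21 with at least 2 CPM, 44 with TMM-scaled library sizes, and 46 to 61 when 1 late heart was left out. Early, edgeR called 83 genes and 0 of the set, none of which passed its filter. DESeq2 called 172 genes and 3 of the set, edgeR without the low-count filter 387 and 5, and edgeR with cKO replicate 4 as a control 162 and 1. With 1 early heart left out, edgeR called 45 to 181 genes and 0 to 1 of the set. The extremes were 181 without cKO replicate 4 and 45, 46, 46 and 54 without control replicate 4, control replicate 3, cKO replicate 2 and control replicate 2. The gene of the set called there was Vmn2r3, without cKO replicate 4 or any 1 control. The number of set genes at 1 CPM in every early cKO heart was 0, and 0 to 1 with 1 heart left out (Vmn2r3, without cKO replicate 4). With the filter lifted, 5 became 3 with DESeq2. The late count of 9713 called genes was 8373 to 10858 under the alternatives that changed 1 choice. Fam227b lost its early call with 1 heart left out in 5 of 8 cases (cKO replicates 2 and 3 and control replicates 2, 3 and 4, adjusted p 0.0717 to 0.101). The 8 genes with no overlap became 8 to 10 with 1 heart left out.

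Same-numbered hearts did not deviate together (correlations -0.0890 to -0.0365 early and -0.412 to -0.0580 late), so the numbers were not taken to pair them. With a replicate block, edgeR called 78 early and 8373 late genes. It called 0 of the set early, or 4 of 5 with the filter lifted, Fam227b missing (adjusted p = 0.121). Depth limits the early values, where 1 count separated the groups in several genes.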
